A study of Homo sapiens with 14 samples.

Results

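RBI2 is a small molecule studied as an inhibitor of ribosome biogenesis, and the comparison described here is that of MDA-MB-231 cells given 5 µM RBI2 with the label 10 min against control cells. The members are the 4 libraries that carry those labels, 2 of RBI2 and 2 of the control, among the 14 libraries of the series. MDA-MB-231 is an established line of human triple-negative breast cancer cells with a mesenchymal character. The other 10 libraries hold, in 2 replicates each, RBI2 labelled 30 and 120 min and CX-5461, which blocks RNA polymerase I (Pol I), at 5 µM labelled 10, 30 and 120 min. Poly(A) RNA was sequenced in stranded libraries. The control is untreated in the study's methods but given DMSO in its results, and whether the vehicle bears on the comparison was not tested. In such bulk samples fewer cells that express a gene and less of its RNA per cell cannot be told apart. Nothing in the labels says that replicates came from separate cultures, so the p-values measure the spread between these libraries, which may be technical. The token in the names of the RBI2 files labelled 10 min is 02, and the tokens 02, 10 and 30 stand beside the labels 10, 30 and 120 min. Times are therefore given as labelled, and what a time was in the experiment was not tested.

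Ribosomal RNA is transcribed by Pol I in the nucleolus, and cells whose nucleolus is disturbed are known to respond through p53. Immediate early genes are switched on without new protein synthesis. They encode transcription factors and feedback inhibitors with short-lived mRNA, so their level can shift within minutes. Signalling pathways also induce inhibitors of themselves, such as SMAD7 and SMAD6 in the pathway of TGF-beta and BMP, the SPRY and DUSP proteins in that of MAP kinases, and SOCS3 in that of cytokines. Whether any of these genes respond to a disturbed nucleolus was not tested.

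The 4 libraries held 16020768 and 14811266 estimated reads in the control and 16412188 and 16198285 with RBI2, and the range over all 14 was 14112299 to 24849354. Control replicate 2 stood apart. Genes of the mitochondrial genome took 20.6% of its reads, against 8.14% to 11.3% in the other 13 libraries, and 1412 genes lay over 2-fold apart between the control replicates, against 526 between the RBI2 replicates and 461 to 629 in the other groups. Values refitted without control replicate 1 or 2 stand beside several of the results below. Of 8 markers of the cell line, such as VIM and AXL, all had reads in each of the 4 libraries and 7 lay above 100 CPM (reads scaled by library size and TMM factor) in each. Of 7 markers that the line should lack, 4 lay under 1 CPM in all of them: ESR1, PGR, CDH1 and FOXA1. The other 3 had reads, with ERBB2 at 52.5 to 62.0 CPM, EPCAM at 10.6 to 11.99 CPM and GATA3 at 3.64 to 6.55 CPM.

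With RBI2 SMAD7, CSRNP1, BHLHE40 and 6 other genes were at least 2-fold higher than in the control, and IGHV3-15, SPRY1 and SOX9 were at least 2-fold lower. Of 15426 genes tested with edgeR's quasi-likelihood test, 12 passed both a Benjamini-Hochberg adjusted p of 0.05 and a 2-fold limit (a log2 fold change of 1 or more in size), which is 0.0778% of the genes tested. These are the genes referred to as called. The 9 higher genes (0.0583%) were SMAD7, CSRNP1, BHLHE40, SMAD6, HES1, SKIL, ID2, GADD45B and SOCS3, and the 3 lower genes (0.0194%) were IGHV3-15, SPRY1 and SOX9. The balance of directions depended on the settings, with 17 higher and 20 lower genes called by DESeq2. It was 138 higher and 161 lower at an unadjusted p, and 117 and 238 with no filter on low counts. Without the limit on the fold change 31 genes (0.201%) passed the adjusted p, 21 higher (0.136%) and 10 lower (0.0648%). In all 31 both RBI2 libraries lay on the same side of both control libraries in CPM. Over all genes tested this was so for 18.2% (higher) and 16.2% (lower), so that an absence of overlap alone singles out nothing with 2 libraries in a group. The median log2 fold change of all genes was 0.005.

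**Figure D1:**
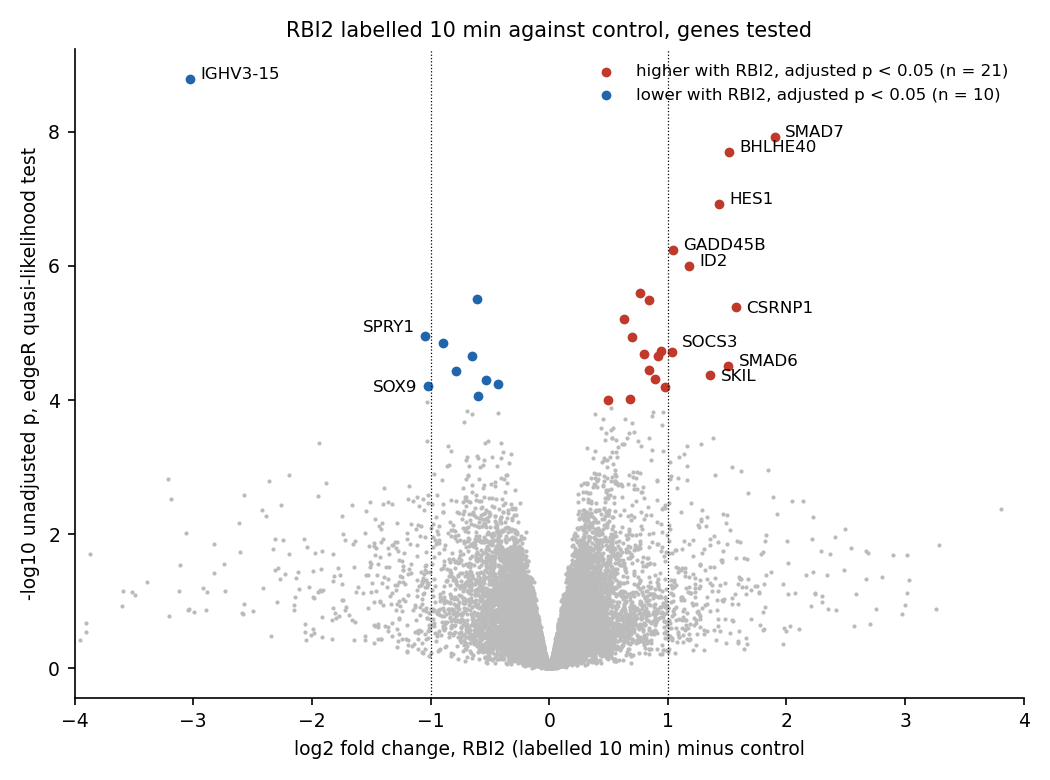
The log2 fold change of RBI2 labelled 10 min minus control (horizontal) is plotted against the -log10 of the unadjusted p of edgeR's quasi-likelihood test (vertical), with 1 point for each gene and dotted lines at a log2 fold change of -1 and 1. The 21 red and 10 blue points passed the adjusted p and the 12 called genes are named, while 93 genes beyond an absolute log2 fold change of 4, none of which passed, lie outside the axis.

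The sequences before the start sites of 5 of the genes that rose are shown as examples. The genes were chosen in part because a short motif stands in 4 of these windows, and DUSP1 among them was not called. The sequences are the 250 bases upstream of a RefSeq transcription start (GRCh38.p14), 5′ to 3′ on the strand of the gene, with capitals for the motifs searched other than GGGCGG. The window of SMAD7 (chr18:48950966-48951215, minus strand) holds none of them. That of SMAD6 (chr15:66701986-66702235, plus strand) holds GTCT directly followed by AGAC, 12 bases before the start. That of BHLHE40 (chr3:4979187-4979436, plus strand) holds CACGTG near its far end. That of GADD45B (chr19:2475877-2476126, plus strand) has the same letters nearer the start, and TATAAA 31 bases before it. That of DUSP1 (chr5:172771196-172771445, minus strand) has TATAAA 30 bases before the start and CACGTG 108 bases before it. It also has 4 matches to TGACG, 1 of which overlaps the site at 108 bases. A further start of SMAD7 (chr18:48949334-48949583, minus strand) has TATAAA 35 bases before it.
SMAD7: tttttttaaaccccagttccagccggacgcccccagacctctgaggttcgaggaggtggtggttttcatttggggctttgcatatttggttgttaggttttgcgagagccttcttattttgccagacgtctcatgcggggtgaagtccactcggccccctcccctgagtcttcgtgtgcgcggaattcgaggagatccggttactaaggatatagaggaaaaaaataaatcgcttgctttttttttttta
SMAD6: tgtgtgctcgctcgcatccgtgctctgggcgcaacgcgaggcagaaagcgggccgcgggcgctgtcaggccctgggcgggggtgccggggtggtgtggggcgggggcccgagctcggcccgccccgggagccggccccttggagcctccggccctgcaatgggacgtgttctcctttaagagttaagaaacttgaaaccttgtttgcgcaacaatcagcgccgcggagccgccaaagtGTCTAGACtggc
BHLHE40: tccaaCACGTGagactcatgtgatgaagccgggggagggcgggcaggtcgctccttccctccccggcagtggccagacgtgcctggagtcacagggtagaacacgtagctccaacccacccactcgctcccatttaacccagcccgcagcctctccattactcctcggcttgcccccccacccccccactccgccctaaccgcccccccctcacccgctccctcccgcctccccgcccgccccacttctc
GADD45B: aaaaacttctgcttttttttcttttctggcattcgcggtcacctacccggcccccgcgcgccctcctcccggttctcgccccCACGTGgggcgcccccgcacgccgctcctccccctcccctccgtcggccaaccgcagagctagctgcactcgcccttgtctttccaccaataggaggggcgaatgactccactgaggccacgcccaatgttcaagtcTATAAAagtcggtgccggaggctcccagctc
DUSP1: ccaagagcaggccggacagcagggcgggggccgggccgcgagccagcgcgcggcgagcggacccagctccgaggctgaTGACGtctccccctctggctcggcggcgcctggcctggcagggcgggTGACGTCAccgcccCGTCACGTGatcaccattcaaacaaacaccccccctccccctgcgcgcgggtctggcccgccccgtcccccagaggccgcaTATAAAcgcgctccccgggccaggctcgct

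Start sites were listed for 26 of the 31 genes, with 29 windows of 19 genes that rose and 15 windows of 7 genes that fell, and several windows of a gene overlap. On either strand CACGTG stood in 3 windows of the genes that rose (10.3%) and in 6.34% of all 35093 windows in the table. It stood in 3 windows of the genes that fell (20%), and in 8.08% of the 15823 windows of the genes tested. TGACG stood in 8 windows of the genes that rose (27.6%) against 21.2% of all windows and 27.5% of those of the genes tested. In the same order TATAAA stood in 3 (10.3%) against 10.7% and 6%, GGGCGG in 15 (51.7%) against 42.6% and 62.9%, and TGANTCA in 2 (6.9%) against 6.57% and 4.57%. In the windows of the genes that fell TGACG stood in 2 (13.3%), TATAAA in 1 (6.67%), GGGCGG in 10 (66.7%) and TGANTCA in none. The CArG box, the element bound by serum response factor, was found in none of these windows and in 1.16% of all windows and 1.08% of those of the genes tested. GTCT joined to AGAC, which was searched after the values had been seen, stood in 1 (3.45%), that of SMAD6, against 0.182% and 0.145%. These are matches of letters and do not show that a factor was bound.

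Among the 16 gene lists, that of the TGF-beta and BMP pathway held the most genes that rose. TGF-beta and BMP ligands bind receptor kinases, which phosphorylate receptor SMADs, and the inhibitory SMADs and SKIL are made in response and close the loop. Of 39 members tested, 6 passed the test and all 6 were higher with RBI2, where 0.136% of all genes passed in that direction: SMAD7, SMAD6, SKIL and PMEPA1 among the inhibitors, and ID2 and ID3 among the targets. None was lower. When each of the 14 libraries was left out in turn, SMAD7 and ID2 passed in all 14 refits, SKIL in 5, SMAD6 in 4, ID3 in 2 and PMEPA1 in 1. The list's median log2 fold change was 0.10, against 0.005 over all genes. The lists were chosen with earlier results of these data known, so the count of 6 is a description and not an independent test of the pathway.

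SMAD7 (chr18:48919853-48950965, minus strand) encodes the inhibitory SMAD that blocks the receptors of TGF-beta. It read 9.82 and 8.39 CPM in control replicates 1 and 2 and 35.6 and 32.6 CPM in RBI2 replicates 1 and 2. Both RBI2 libraries were above both controls, and the means of 9.10 ± 1.01 and 34.1 ± 2.09 CPM (SD, n = 2) differed 3.73-fold (log2 fold change 1.90 ± 0.12 (SE), adjusted p = 9.24e-05). SMAD6 (chr15:66702236-66782849, plus strand), the inhibitory SMAD that acts mainly against BMP receptors, was much less abundant, with 1.68 and 1.598 CPM in the control and 5.59 and 3.77 CPM with RBI2. The RBI2 libraries were apart from each other but above both controls, 2.84-fold in the means (log2 fold change 1.51 ± 0.22, adjusted p = 0.0237). These values rest on 27 and 20 reads in the control and 92 and 61 with RBI2. Per length, in TPM, the share of transcripts that Salmon gives a gene after division by length, SMAD7 stood at 2.96 ± 1.17 in the control and 15.3 ± 1.49 with RBI2 and SMAD6 at 0.411 ± 0.199 and 1.36 ± 0.314 (SD, n = 2), so SMAD7 was the more abundant of the inhibitory SMADs in both groups.

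SKIL (chr3:170357342-170396835, plus strand) encodes SnoN, a repressor of SMAD-dependent transcription. It stood at 13.98 and 22.9 CPM in the control and at 45.7 and 48.2 CPM with RBI2. The lower control was replicate 1, and the RBI2 libraries lay above both (2.56-fold, log2 fold change 1.36 ± 0.20, adjusted p = 0.0286). PMEPA1, a membrane protein that sequesters receptor SMADs, showed a smaller rise, from 20.6 and 21.4 CPM to 28.9 and 30.5 CPM (log2 fold change 0.50 ± 0.08, adjusted p = 0.0490).

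ID2 and ID3 encode inhibitors of DNA binding, which pair with bHLH transcription factors and keep them from DNA, and both are known targets of BMP. ID2 (chr2:8678845-8684461, plus strand) read 5.28 and 5.91 CPM in the control and 12.7 and 12.6 CPM with RBI2, with little spread in either group. The difference was 2.26-fold (log2 fold change 1.18 ± 0.12, adjusted p = 0.00261). ID3 read 70.7 and 47.9 CPM in the control and 118 and 115 CPM with RBI2, above both controls, with a log2 fold change of 0.98 ± 0.15 (adjusted p = 0.0350). Its near relative ID1 lay at 157 and 101 CPM against 236 and 228 CPM and did not pass (log2 fold change 0.84, adjusted p = 0.101).

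The other members of the pathway did not pass. Of the 5 ligands tested none did. TGFB1, the main TGF-beta ligand, read 71.8 and 67.8 CPM in the control against 74.7 and 70.9 CPM. BMP4 read 42.9 and 41.1 CPM against 31.3 and 32.1 CPM (log2 fold change -0.41, adjusted p = 0.103). The 7 receptors had log2 fold changes between -0.24 and 0.27, and the 6 SMADs that carry the signal between -0.13 and 0.47. Of the 12 inhibitors, 8 had both RBI2 libraries above both controls, as had 18.2% of all genes, with SKI at 75.8 and 84.6 against 91.4 and 91.7 CPM. TGIF1, a repressor that binds SMADs, lay below both controls, at 27.2 and 25.1 against 22.95 and 22.1 CPM. GREM1 read 35.7 and 153 CPM in the control and 44.4 and 54.9 CPM with RBI2, and SMURF2 262 and 380 against 272 and 263.5 CPM. In both genes the RBI2 libraries lay between the 2 controls, and neither passed (log2 fold change -0.92 and -0.26).

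The reads of SMAD7 fell on 2 of its transcripts for the most part. SMAD7-201, the protein-coding transcript of 4428 bases, held 58.6% of the reads over the 4 libraries and went from 117 and 66.8 reads in the control to 306 and 317 with RBI2. SMAD7-202, annotated as a retained intron, held 40.5% and went from 40.9 and 38.2 reads to 273 and 206. Both transcripts had more reads in each RBI2 library than in either control library. BHLHE40, HES1, SOCS3, CSRNP1 and DUSP1 each had at least 99.3% of their reads on 1 transcript. For AKAP9, CITED2, SPRY1 and C15orf39 the leading transcript was at 0 reads in 1 of the 4 libraries and not in the others, so that only their sums over the gene are used.

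**Figure D2:**
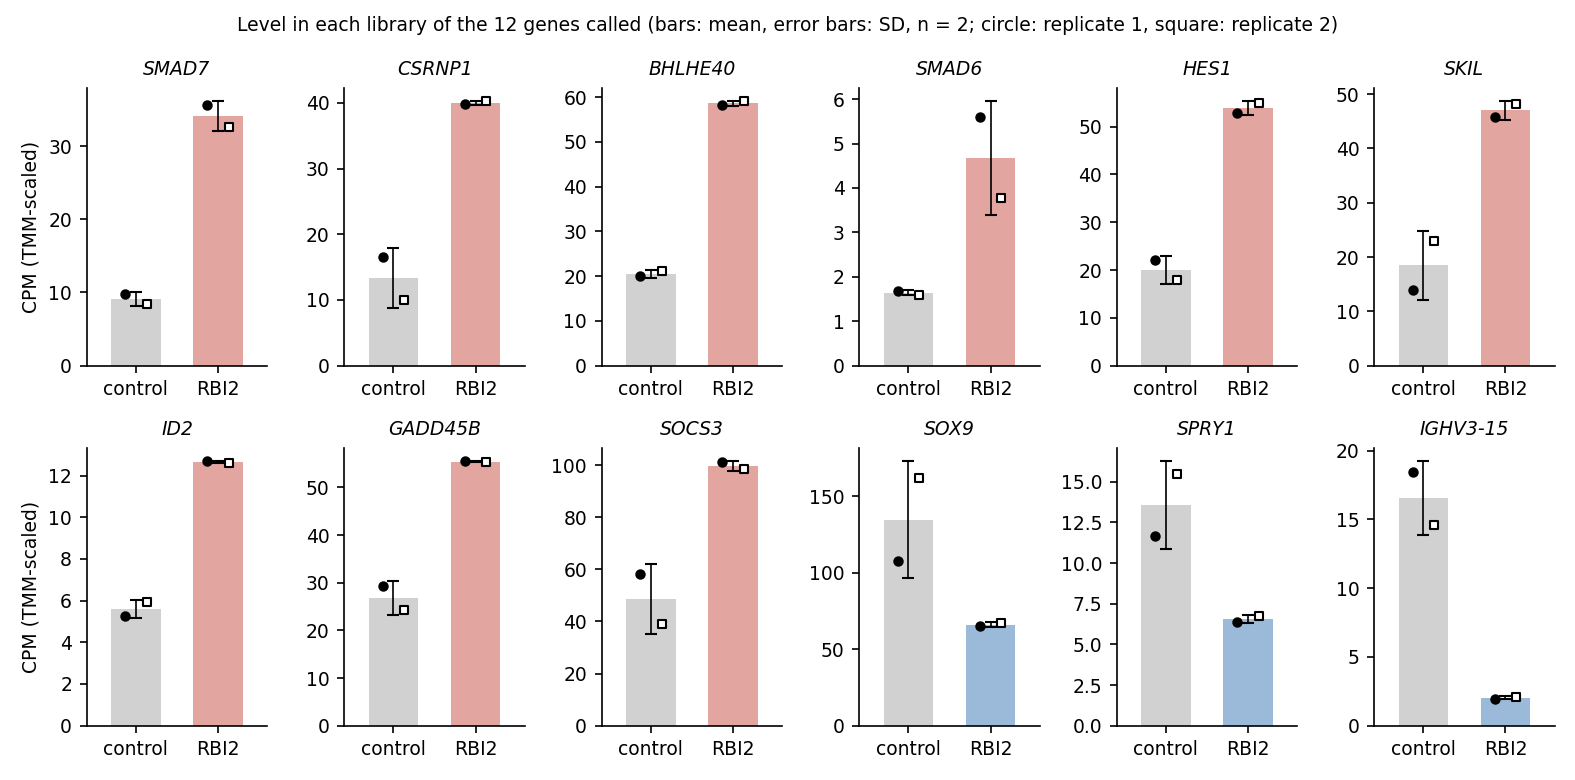
The level of each of the 12 called genes in CPM is shown for the control and for RBI2 labelled 10 min, with bars for means, error bars for the SD of 2 replicates, circles for replicate 1 and squares for replicate 2. The RBI2 replicates lie close together in every panel but that of SMAD6 (5.59 and 3.77 CPM), while the control replicates are further apart in SOX9, SOCS3, SKIL and CSRNP1.

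Among the regulators of the Notch pathway and its relatives, HES1 and BHLHE40 rose and SOX9 fell, and the other 19 of 22 members tested did not pass. Of all genes 0.136% rose and 0.0648% fell at the same adjusted p. HES1 (chr3:194136148-194138732, plus strand) encodes a bHLH repressor that is the classic target of Notch. It read 22.1 and 17.9 CPM in the control and 52.9 and 55.0 CPM with RBI2, where both libraries were above both controls (2.69-fold, log2 fold change 1.43 ± 0.11, adjusted p = 0.000466). BHLHE40 (chr3:4979437-4985323, plus strand), a bHLH repressor of the circadian clock and of stress responses, read 19.95 and 21.2 CPM in the control and 58.3 and 59.1 CPM with RBI2. Replicates of each group were within a few percent of one another, and the difference was 2.85-fold (log2 fold change 1.51 ± 0.10, adjusted p = 0.000104).

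SOX9 (chr17:72121020-72126416, plus strand), a transcription factor of progenitor cells and cartilage, read 107 and 162 CPM in the control and 64.9 and 67.3 CPM with RBI2. Both RBI2 libraries were below both controls (2.03-fold, log2 fold change -1.02 ± 0.16, adjusted p = 0.0350). Of the difference, more came from control replicate 2: without it the log2 fold change was -0.72, and without replicate 1 it was -1.30. The ligands and receptors of Notch did not pass, with NOTCH1 at 62.0 and 63.6 against 59.4 and 76.4 CPM and JAG1 at 19.4 and 23.3 against 20.9 and 22.05 CPM. Of the other bHLH genes HEY1 lay under 1 CPM in all 4 libraries, and HES6 read 7.52 and 1.997 against 8.32 and 7.60 CPM (adjusted p = 0.452). Without control replicate 1 HES6 passed (log2 fold change 1.99, adjusted p = 0.000444), and without control replicate 2 it did not (0.064, adjusted p = 0.968).

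Of the immediate early genes, 33 were tested, and CSRNP1 and GADD45B rose while KLF6 fell, where 0.136% of all genes rose and 0.0648% fell. CSRNP1 (chr3:39141855-39154562, minus strand), a nuclear protein induced by AXIN1, read 16.5 and 10.1 CPM in the control and 39.8 and 40.2 CPM with RBI2 (2.98-fold, log2 fold change 1.58 ± 0.18, adjusted p = 0.00631). GADD45B (chr19:2476122-2478259, plus strand), an activator of stress kinases that TGF-beta is known to induce, read 29.4 and 24.3 CPM in the control and 55.6 and 55.3 CPM with RBI2. In both genes the lower control was replicate 2 and the RBI2 libraries lay above both, in GADD45B 2.06-fold (log2 fold change 1.04 ± 0.10, adjusted p = 0.00179).

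KLF6, a zinc finger factor of the early response, was lower, with 141 and 126 CPM in the control and 88.4 and 81.8 CPM with RBI2 (log2 fold change -0.65 ± 0.09, adjusted p = 0.0178). In TPM, which is not TMM-scaled, its main transcript KLF6-206 read 42.7 and 21.2 in the control and 27.5 and 23.5 with RBI2. There the groups overlapped. The AP-1 genes did not pass. FOS read 2.30 and 2.24 CPM in the control and 3.64 and 3.77 CPM with RBI2 (log2 fold change 0.71, adjusted p = 0.152). FOSL1, the most abundant of them by CPM, read 696 and 938 against 590 and 605 CPM, and JUN read 113 and 102 against 97.5 and 104 CPM. The genes that serum induces most, EGR1 and NR4A1, read 9.01 and 12.9 against 14.2 and 16 CPM and 1.49 and 1.44 against 2.91 and 3.03 CPM, with adjusted p of 0.294 and 0.156. EGR2, EGR3 and EGR4 had too few reads to be tested. IER2 depended on the control library, with 52.4 and 23.3 CPM in the control and 63.8 and 65.6 CPM with RBI2: its log2 fold change was 0.76 (adjusted p = 0.291), 0.29 without control replicate 2 (adjusted p = 0.460) and 1.47 without control replicate 1 (adjusted p = 4.99e-05).

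SOCS3 (chr17:78356778-78360077, minus strand), the inhibitor that cytokine receptors induce against JAK kinases, belongs to none of the lists and was called as well. It read 58.2 and 39.1 CPM in the control and 101 and 98.3 CPM with RBI2, where both were above both controls (2.04-fold, log2 fold change 1.03 ± 0.14, adjusted p = 0.0178).

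Of 24 feedback genes of the MAP kinase pathway, DUSP1 rose, SPRY1 and PHLDA1 fell and 21 did not pass, against 0.136% of all genes that rose and 0.0648% that fell. The list's median log2 fold change was 0.026 (-0.019 without control replicate 1 and 0.0075 without control replicate 2). DUSP1 encodes a phosphatase that inactivates p38, JNK and ERK, and read 35.4 and 32.9 CPM in the control and 58.2 and 58.1 CPM with RBI2 (log2 fold change 0.77 ± 0.08, adjusted p = 0.00559). SPRY1 (chr4:123396795-123403760, plus strand), a Sprouty protein that dampens receptor tyrosine kinase signals, read 11.7 and 15.5 CPM in the control and 6.38 and 6.73 CPM with RBI2. The RBI2 libraries lay below both controls, 2.06-fold in the means (log2 fold change -1.05 ± 0.13, adjusted p = 0.0135).

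PHLDA1, a target of ERK signals with a pleckstrin homology-like domain, read 214 and 229 CPM in the control and 148 and 142 CPM with RBI2 (log2 fold change -0.61 ± 0.07, adjusted p = 0.00559). In TPM its main transcript PHLDA1-202 read 63.5 and 37.0 in the control and 44.1 and 39.7 with RBI2, so that the groups overlapped. DUSP6, the phosphatase most specific to ERK, lay in the same direction without passing, at 145 and 159.6 against 112 and 114 CPM (log2 fold change -0.43, adjusted p = 0.0640). SPRY2 and SPRY4 read 49.0 and 45.5 against 45.1 and 45.6 CPM and 65.2 and 81.2 against 81.0 and 91.2 CPM, and neither passed.

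Of 14 targets of YAP, the factor that senses cell tension, AMOTL2 alone passed, and it was higher, as were 0.136% of all genes at that adjusted p. AMOTL2 encodes an angiomotin that binds YAP and holds it out of the nucleus. It read 169.6 and 163 CPM in the control and 253 and 263 CPM with RBI2 (log2 fold change 0.63 ± 0.08, adjusted p = 0.00859). CCN1, CCN2 and ANKRD1, the most used readouts of YAP, had log2 fold changes of 0.10, 0.15 and 0.25 and did not pass.

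Among the genes that passed the adjusted p, the one with the largest fall was annotated as an immunoglobulin segment. IGHV3-15, a heavy chain V gene (chr14:106153624-106154163, minus strand), read 18.5 and 14.6 CPM in the control and 1.94 and 2.10 CPM with RBI2. This was 8.18-fold lower (log2 fold change -3.03 ± 0.16, adjusted p = 2.49e-05), and 297 and 183 reads stood against 32 and 34. B cells rearrange such segments to make antibodies, and a breast cancer line is not known to do so. Of 10 markers of B cells and other leukocytes, 7 were at 0 reads in all 4 libraries, among them MS4A1, IGHM and IGKC, and 9 lay under 1 CPM. The summed level of the list was 23.0 and 26.9 CPM in the control and 23.6 and 25.1 CPM with RBI2, nearly all of it from CD22.

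Among 397 annotated immunoglobulin genes 13 had a read in any of the 4 libraries. After IGHV3-15 the next on the same strand of chromosome 14 were IGHV1-14 (chr14:106145891-106146131) with 12 and 6 reads in the control against 3 and 2, and IGHVIII-13-1 (chr14:106142287-106142577) with 10 and 8 against 1 and 1. IGLV5-52 on chromosome 22 had 10 and 8 reads against 12 and 20. Which transcript the reads at IGHV3-15 came from was not tested.

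The other genes that passed were outside the lists. Of those that rose, FAM43A read 7.40 and 7.19 CPM in the control and 14.1 and 13.96 CPM with RBI2 (log2 fold change 0.94, adjusted p = 0.0178). CASTOR2, a relative of the arginine sensor of mTORC1 with near copies in the genome, read 8.95 and 7.83 against 14.6 and 17.3 CPM (0.92, adjusted p = 0.0178), and WDR4, a subunit of the tRNA m7G methyltransferase, read 4.16 and 3.83 against 7.47 and 7.41 CPM (0.89, adjusted p = 0.0305). These 3 were nearly 2-fold higher with RBI2 but were not called.

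C15orf39 read 22.6 and 20.3 CPM in the control and 36.8 and 40.0 CPM with RBI2, and GATA2, a transcription factor of blood progenitors, read 37.2 and 31.2 against 55.7 and 55.6 CPM. AMIGO2, an adhesion protein, read 25.9 and 25.7 against 44.8 and 38.2 CPM. P2RY11, a purinergic receptor, and TMBIM4, a Golgi protein of the BAX inhibitor family, had log2 fold changes of 0.84 and 0.80. P2RY11 overlaps the read-through gene PPAN-P2RY11 and TMBIM4 overlaps another gene on the same strand, so that Salmon divides their reads and the values are less certain. The transcript TMBIM4-212, annotated for nonsense-mediated decay, had 0 and 0 reads in the control and 45.6 and 110 with RBI2. The protein-coding TMBIM4-209 had 69.1 and 26.4 reads against 43.2 and 59.5, and the groups overlapped.

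Of those that fell, BDNF, the neurotrophin, read 36.4 and 47.3 CPM in the control and 22.2 and 22.6 CPM with RBI2 (log2 fold change -0.90 ± 0.12, adjusted p = 0.0156). ANKRD36, which has near copies in the genome, had a log2 fold change of -0.79. AKAP9, a scaffold of the Golgi and centrosome, read 82.2 and 94.2 against 60.8 and 55.2 CPM (-0.60, adjusted p = 0.0469). The fall of AKAP9 depended on how its transcripts were counted, since its TPM was 20.03 ± 0.797 in the control and 29.9 ± 2.42 with RBI2 and its log2 fold change was 0.34 with an offset for transcript length. CITED2, a partner of CBP and p300, read 71.8 and 81.6 against 51.4 and 54.2 CPM (-0.54, adjusted p = 0.0305). The fall of CITED2 was smaller in TPM, at 54.8 ± 8.56 in the control and 47.1 ± 2.89 with RBI2 (SD, n = 2).

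RRP15, a factor for the maturation of the large ribosomal subunit, read 90.5 and 93.8 CPM in the control and 67.2 and 69.8 CPM with RBI2 (log2 fold change -0.43 ± 0.07, adjusted p = 0.0342). It passed in 2 of the 14 refits that leave out 1 library each, with an adjusted p of up to 0.271 in the others. It was not among the 51 ribosome biogenesis factors of the list. Of the 31 genes, 11 overlap an annotated gene on the other strand. The libraries were stranded, and whether Salmon was told so is not given in the sources used here.

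In the lists that bear on the nucleolus no gene passed, where 0.201% of all genes did. At that share lists of these sizes would seldom hold a passing gene, so the counts say little about the nucleolus. Of 23 genes of the Pol I machinery none passed, and their median log2 fold change was 0.01 (0.014 without control replicate 1 and 0.023 without control replicate 2). Refits are given for the 4 members with the largest change only. The log2 fold changes without control replicate 1 were 0.98 for POLR2E, -0.52 for POLR2K, -0.40 for TAF1A and 0.47 for TAF1C. In the same order they were 0.0033, -0.080, -0.22 and 0.048 without control replicate 2. The TRAMP, NEXT and exosome genes, which tag and degrade nuclear RNA, had none of 22 and a median of -0.09. ZFC3H1, a zinc finger protein that links the poly(A) tail to the exosome, read 31.8 and 56.5 CPM in the control and 24.4 and 29.04 CPM with RBI2, with an adjusted p of 0.284. The list's median was -0.18 without control replicate 1 and -0.086 without control replicate 2. Refits of single genes are given only for the 4 members with the largest change, and not for the others of the 22. The log2 fold changes without control replicate 1 were -1.09 for ZFC3H1, -0.63 for EXOSC10, -0.56 for ZCCHC7 and 0.77 for EXOSC5. In the same order they were -0.27, -0.083, -0.36 and -0.054 without control replicate 2. The 51 ribosome biogenesis factors had a median of -0.13 (-0.19 without control replicate 1 and -0.064 without control replicate 2) and none passed. For the 4 members picked in the same way, the log2 fold changes without control replicate 1 were -0.57 (WDR75), -0.73 (UTP20), -0.62 (DDX10) and -0.45 (NOP2). In the same order they were -0.070, 0.067, -0.11 and -0.80 without control replicate 2. NOP2, a methyltransferase of the large subunit, read 85.8 and 68.1 against 59.2 and 40.6 CPM (adjusted p = 0.419).

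None of the 79 cytosolic ribosomal proteins passed, where 0.201% of all genes did, and the list's median was 0.03. The position of the list depended on the control library, with a median of 0.18 without control replicate 1 and -0.10 without control replicate 2. Reads that aligned to the rDNA repeat had been taken out by the authors, so the levels of ribosomal RNA were not analysed here.

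MDA-MB-231 cells are known to carry a mutant p53. None of the 20 targets of p53 passed, where 0.201% of all genes did. Of the 20, 16 were above 0, as were 7798 of the 15426 genes tested. The list's median was 0.18, and it was 0.33 without control replicate 1 and 0.10 without control replicate 2. CDKN1A, the inhibitor of cyclin-dependent kinases, read 25.1 and 17.6 CPM in the control and 31.7 and 28.4 CPM with RBI2 (log2 fold change 0.49, adjusted p = 0.256). Its log2 fold change was 0.77 (adjusted p = 0.00186) without control replicate 1 and 0.24 (adjusted p = 0.679) without control replicate 2. MDM2, the ligase of p53, read 54.9 and 61.8 against 60.9 and 67.5 CPM. Lists of 5 to 20 genes would seldom hold a passing gene at the share of 0.201% over all genes. None passed among 20 genes of the integrated stress response (median 0.13), 14 heat shock genes (-0.06), 20 targets of NF-kB (-0.04), 10 genes of 7SK and P-TEFb (-0.18) and 5 genes for poly(A) binding and ataxin-2 (-0.24). These medians moved with the control library. Without control replicate 1 and then without control replicate 2 they were 0.35 and 0.055 for the integrated stress response, -0.13 and 0.0067 for heat shock, -0.075 and -0.10 for NF-kB, -0.46 and 0.0033 for 7SK and P-TEFb, and -0.28 and -0.13 for poly(A) binding and ataxin-2.

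PABPC1, the main cytoplasmic poly(A)-binding protein, read 1515 and 2333 CPM in the control and 1375 and 1319 CPM with RBI2 (log2 fold change -0.51 ± 0.15, adjusted p = 0.238). ATXN2, which binds it, read 61.9 and 120.1 CPM in the control against 57.4 and 57.4 CPM (log2 fold change -0.66 ± 0.22, adjusted p = 0.291). In both the higher control was replicate 2, and without it the values were -0.19 (adjusted p = 0.534) and -0.13 (adjusted p = 0.820). Without control replicate 1 they were -0.80 (adjusted p = 9.63e-05) and -1.07 (adjusted p = 7.59e-05), so that both passed against control replicate 2 alone. GAPDH, a glycolytic enzyme often used as a reference, read 3373 and 2913 CPM in the control and 3248 and 3232 CPM with RBI2, and the groups overlapped.

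The genes of the mitochondrial genome had the lowest median, -0.98, and 12 of 15 had both RBI2 libraries below both controls, against 16.2% of all genes. None of them passed the adjusted p, where 0.201% of all genes did. MT-ATP6, a subunit of ATP synthase, read 10750 and 30630 CPM in the control and 9196 and 9313 CPM with RBI2. Its log2 fold change was -1.16, and was -1.73 (adjusted p = 6.81e-05) without control replicate 1 and -0.23 (adjusted p = 0.770) without control replicate 2. The median of the list was -1.49 without control replicate 1 and -0.19 without control replicate 2.

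**Figure D3:**
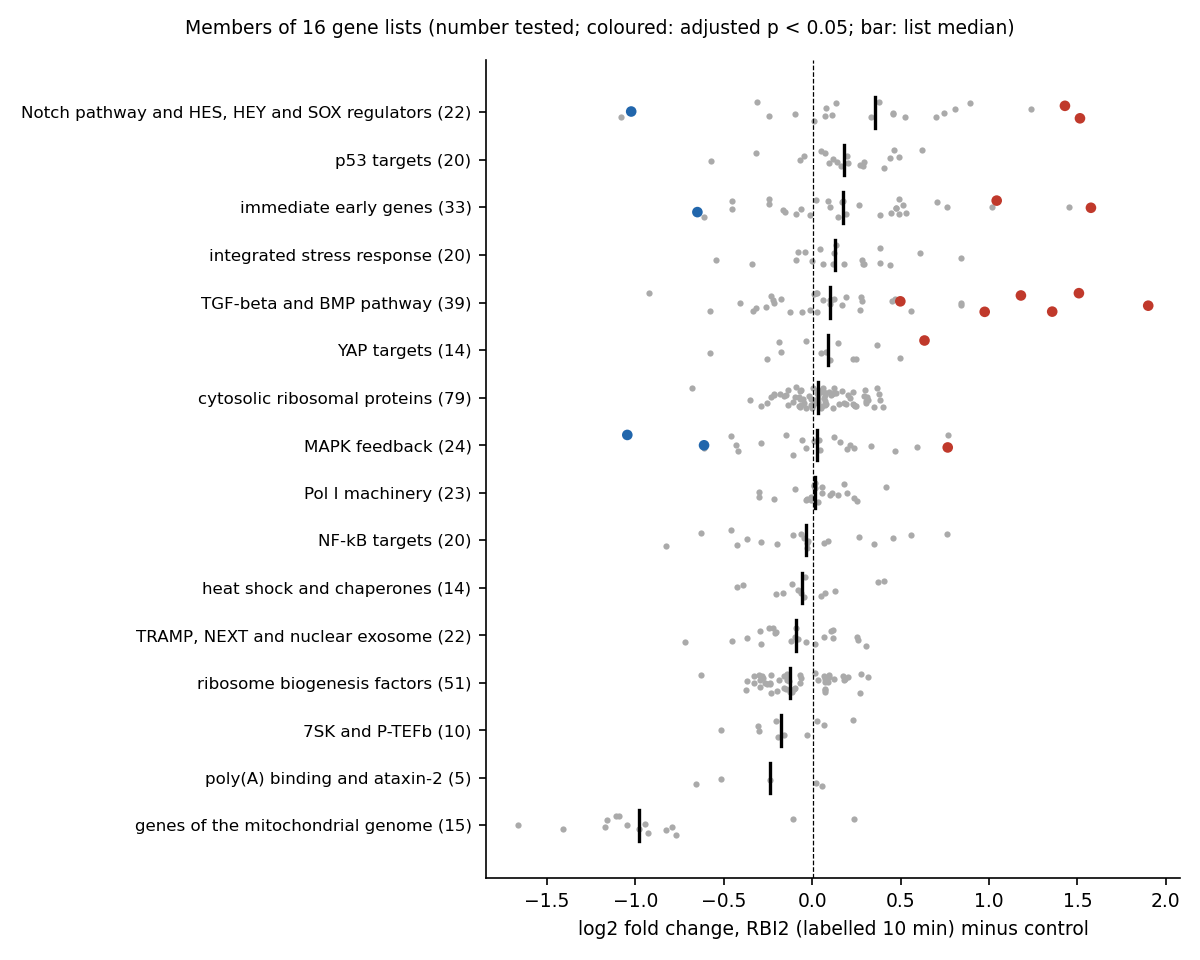
Each point is a tested member of 1 of 16 gene lists, placed by its log2 fold change of RBI2 labelled 10 min minus control, with vertical bars for list medians and a dashed line for the median of all genes. Coloured points passed the adjusted p: 6 red points stand in the TGF-beta and BMP list, while the mitochondrial list has the lowest median (-0.98) and no coloured point. The lists were chosen with earlier results of these data known.

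The change of each of the 31 genes was set against each control replicate on its own, which gives 4 log2 ratios of an RBI2 library to a control library (prior count 2). All 4 had the same sign in each of the 31 genes. In 7 genes all 4 ratios were at least 2-fold: SMAD7 (1.72 to 2.07), CSRNP1 (1.26 to 1.99), BHLHE40 (1.46 to 1.56), SMAD6 (1.11 to 1.73), HES1 (1.26 to 1.61), ID2 (1.08 to 1.25) and IGHV3-15 (-3.17 to -2.73). SKIL fell just short (0.99 to 1.78). In GADD45B (0.91 to 1.19), SOCS3 (0.75 to 1.37), SPRY1 (-1.27 to -0.78) and SOX9 (-1.32 to -0.67) the change was 2-fold against only 1 of the control replicates.

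In refits without 1 of the controls the number of calls moved. Without control replicate 1 all 31 genes passed, and 724 genes were called in place of 12. Without control replicate 2 the number called was 12, and 21 of the 31 passed. The 10 that did not were SMAD6, PMEPA1, FAM43A, CASTOR2, WDR4, P2RY11, TMBIM4, AMIGO2, AKAP9 and ANKRD36. SMAD7 had a log2 fold change of 2.02 without control replicate 1 and of 1.78 without control replicate 2, BHLHE40 of 1.47 and 1.54, and IGHV3-15 of -2.86 and -3.20. SMAD6 kept its size (1.54 and 1.46) but not the adjusted p without control replicate 2 (0.0976). Without RBI2 replicate 1 or without RBI2 replicate 2, 7 genes were called and 7 of the 31 passed. Leaving out a library of a group outside the comparison, which enters through the shared spread, also lost genes: 14 of the 31 passed without either library of CX-5461 labelled 10 min, 13 without either of RBI2 labelled 30 min, 14 without RBI2 labelled 120 min replicate 1, and 16 to 27 without any 1 of the other 5 such libraries. With an offset for transcript length 6 genes were called, namely SMAD7, BHLHE40, HES1, ID2, GADD45B and IGHV3-15, and 10 of the 31 passed. The controls pulled apart the sizes of several called genes. Without control replicate 1 and then without control replicate 2, the log2 fold change was 1.03 and 1.73 for SKIL, 1.99 and 1.26 for CSRNP1, 1.35 and 0.76 for SOCS3, 1.19 and 0.90 for GADD45B, -1.25 and -0.85 for SPRY1, and 1.28 and 0.71 for ID3. SOCS3, GADD45B, SPRY1 and SOX9 were thus under the 2-fold limit without control replicate 2. Like SMAD6 they were no longer called there, so the equal number of calls was not the same set of genes. Over the 14 refits that leave out 1 library each, SPRY1 and CSRNP1 passed in 12, SOCS3 in 6 (adjusted p up to 0.166) and SOX9 in 3 (up to 0.347). Of the genes under the 2-fold limit, C15orf39 passed in 13, DUSP1, AMOTL2 and PHLDA1 in 12, BDNF in 11, KLF6 and GATA2 in 7, and the other 12 in 6 or fewer. The 4 libraries fitted alone with edgeR gave 0 calls, while 471 genes had an unadjusted p under 0.05 there, and DESeq2 on all 14 libraries called 37. SMAD7, BHLHE40, HES1, ID2, GADD45B and IGHV3-15 passed the adjusted p when any 1 of the 14 libraries was left out.

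**Figure D4:**
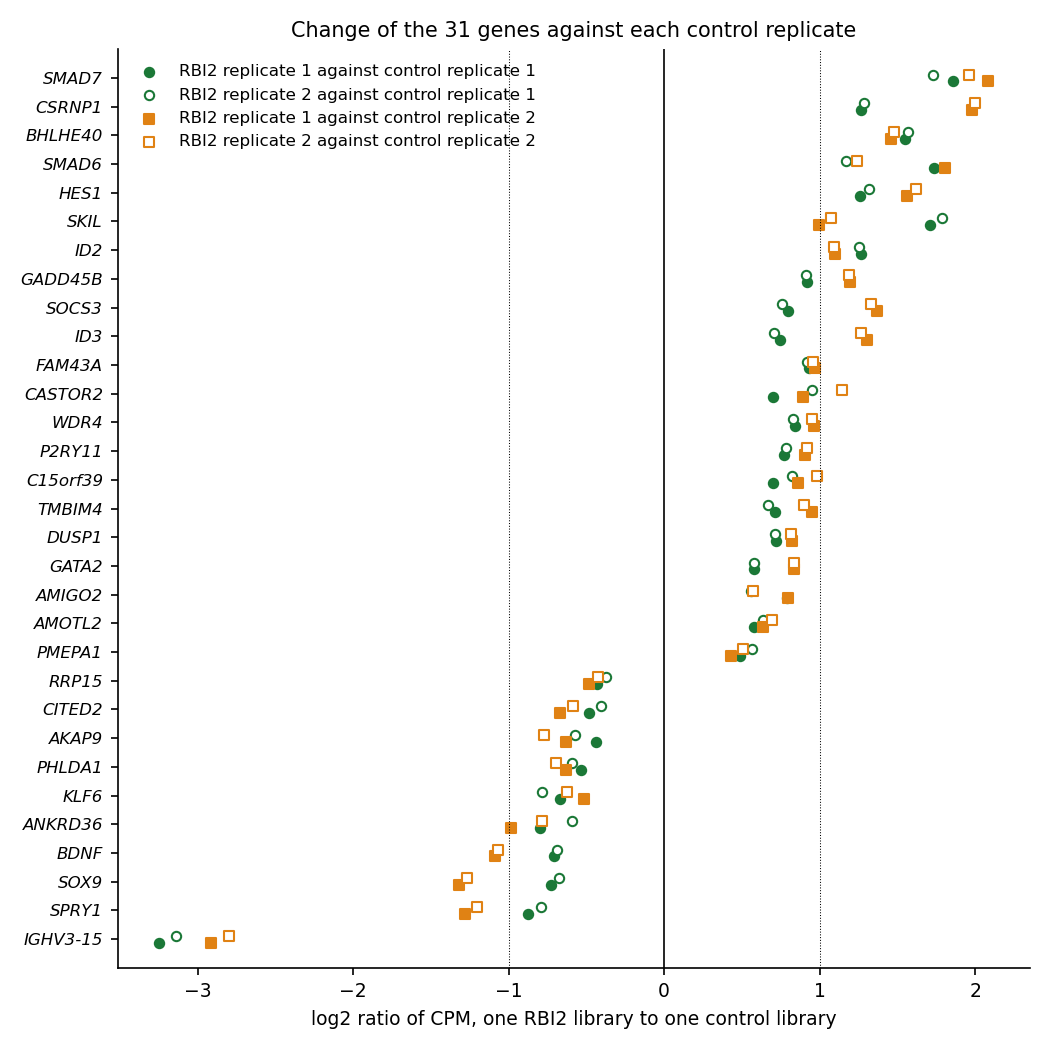
For each of the 31 genes that passed the adjusted p, the log2 ratio of CPM (no prior count added) of each RBI2 library to each control library is plotted, green circles against control replicate 1 and orange squares against control replicate 2, filled for RBI2 replicate 1. All points of a gene lie on the same side of 0, and the controls separate most in SKIL, SOCS3, ID3, CSRNP1, SOX9 and SPRY1.

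The RBI2 libraries labelled 10 min were then compared with those of the other RBI2 labels. No control library enters these differences, but the control libraries are in the fit and bear on the spread it uses. Against RBI2 labelled 30 min 9 genes were called (0.0583% of the genes tested), and against RBI2 labelled 120 min 107 (0.694%). Those past the adjusted p at any fold were 29 (0.188%) and 993 (6.44%). The count of 107 was 7 without RBI2 labelled 10 min replicate 1, 17 and 14 without replicates 1 and 2 of the label 120 min, and 201 and 215 without control replicates 1 and 2, and the count of 9 lay between 5 and 19 when any 1 library was left out. The 31 genes had been picked by their values in these same libraries labelled 10 min, so their counts here are a description. At the adjusted p, 13 of them differed from RBI2 labelled 30 min and 19 from RBI2 labelled 120 min in the direction they had against the control, and 12 did so against both. In 18 and 10 the difference did not pass.

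The 12 were SMAD7, BHLHE40, HES1, SKIL, ID2, GADD45B, DUSP1, AMIGO2 and AMOTL2, which were higher with the label 10 min, and IGHV3-15, SPRY1 and KLF6, which were lower. SMAD7 read 11.7 and 11.2 CPM with the label 30 min and 13.7 and 13.6 CPM with the label 120 min, closer to the control than to the 35.6 and 32.6 CPM of the label 10 min. BHLHE40 read 22.5 and 25.0 CPM and then 23.0 and 24.6 CPM, and SKIL 17.7 and 20.5 CPM and then 14.9 and 15.4 CPM. In none of these libraries did the level reach that of the label 10 min. Against the control SMAD7 still passed at the label 120 min (log2 fold change 0.58, adjusted p = 0.0172), as did HES1 (0.75, adjusted p = 0.00721), GADD45B (0.41, adjusted p = 0.0227), CSRNP1 (0.64, adjusted p = 0.0403) and SMAD6 (1.18, adjusted p = 0.0118). SMAD6 at the label 10 min did not pass against the label 120 min (log2 difference 0.32, adjusted p = 0.361).

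SPRY1 showed the converse, with 13.7 and 13 CPM for the label 30 min and 13.4 and 13.8 CPM for the label 120 min. IGHV3-15 did so too, with 15.02 and 15.97 CPM and 12.8 and 12.4 CPM. KLF6 stood at 169.9 and 159.9 CPM and 179.9 and 169.5 CPM, above the control values of 141 and 126 CPM. At the label 120 min KLF6 passed as higher than the control (log2 fold change 0.39, adjusted p = 0.0203) and DUSP1 as lower (-0.29, adjusted p = 0.0424), against their directions at the label 10 min.

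CASTOR2 and WDR4 went the other way. CASTOR2 read 17.9 and 18.2 CPM with the label 30 min and 25.0 and 22.6 CPM with the label 120 min, and WDR4 read 8.28 and 8.64 CPM and then 12.8 and 10.6 CPM. Both were higher with the label 120 min than with the label 10 min (log2 difference of the label 10 min minus 120 min -0.58, adjusted p = 0.0264, and -0.66, adjusted p = 0.0198). RRP15 stood at 70.6 and 67.0 CPM and at 71.2 and 69.7 CPM, close to the 67.2 and 69.8 CPM of the label 10 min, and AKAP9 at 52.3 and 51.5 CPM and at 59.1 and 67.2 CPM.

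**Figure D5:**
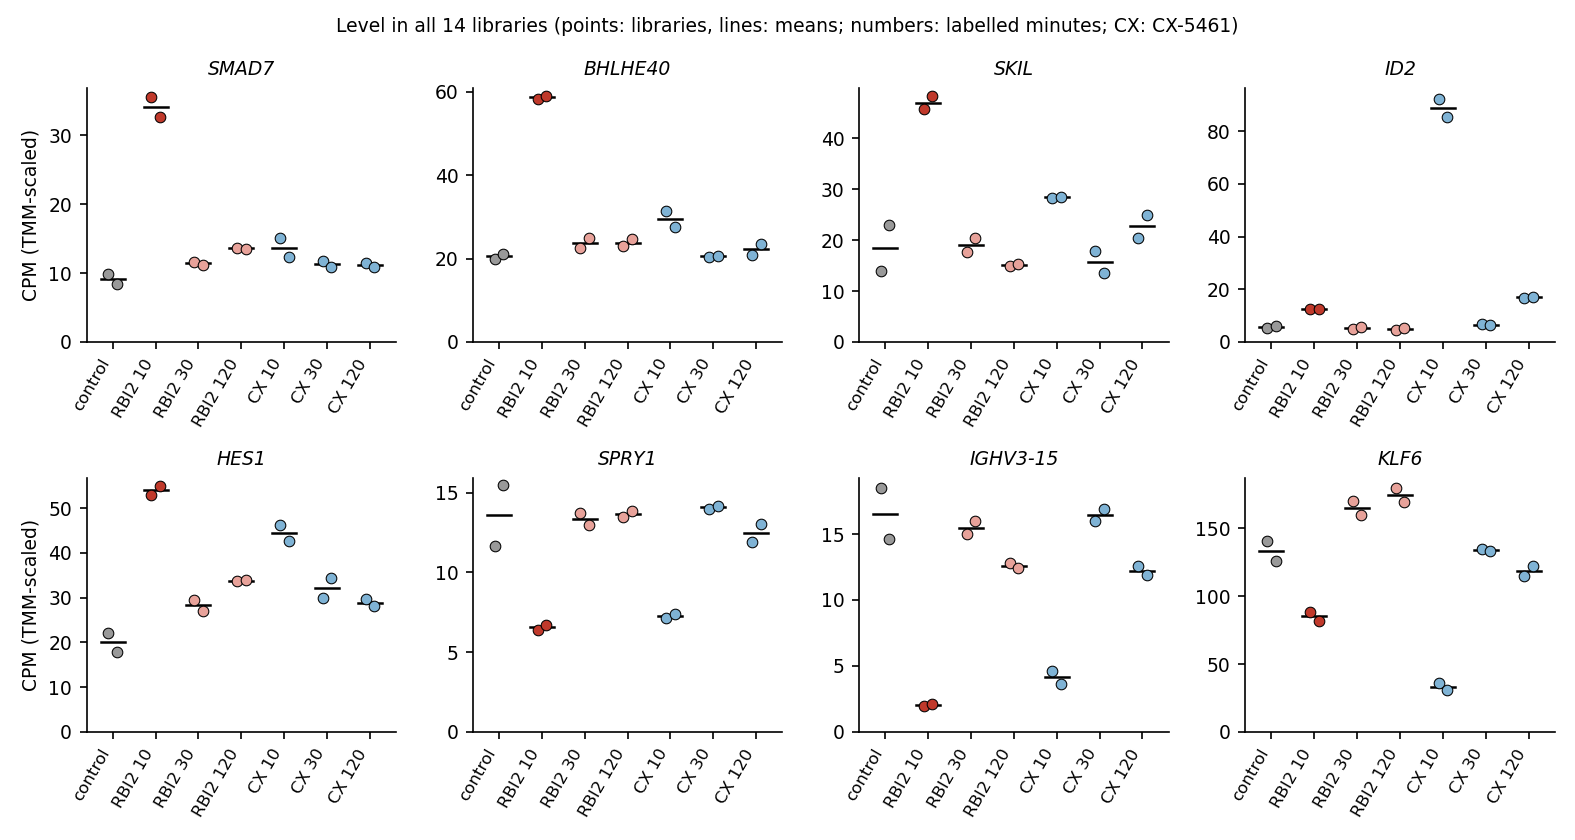
The level in CPM of 8 genes is shown in all 14 libraries, grouped by compound and labelled minutes, with a point for each library and a line for each mean. SMAD7, BHLHE40 and SKIL are highest in the RBI2 libraries labelled 10 min, SPRY1 and IGHV3-15 are lowest there with CX-5461 labelled 10 min next, and ID2 (92.3 and 85.6 CPM) and KLF6 (35.8 and 30.97 CPM) are most displaced with CX-5461 labelled 10 min.

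RBI2 and CX-5461 were compared at the same labelled time and dose, in the same fit. CX-5461 is given here as a Pol I inhibitor only, and no structure is stated for RBI2. At the label 10 min 160 genes were called between the compounds (1.04% of the genes tested), 98 higher with RBI2 and 62 lower, and 472 (3.06%) passed the adjusted p at any fold. The count of 160 was 95 without RBI2 replicate 2, and 99 and 98 without CX-5461 replicates 1 and 2. Of the 31 genes, 12 differed in the direction they had against the control, 3 in the opposite direction, and 16 did not pass.

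The 3 were ID2, KLF6 and PHLDA1, which lay further from the control with CX-5461. ID2 read 92.3 and 85.6 CPM with CX-5461 against 12.7 and 12.6 CPM with RBI2 (log2 difference of RBI2 minus CX-5461 -2.81 ± 0.11, adjusted p = 2.5e-07). KLF6 read 35.8 and 30.97 CPM with CX-5461 against 88.4 and 81.8 CPM with RBI2, and PHLDA1 89.4 and 86.4 against 148 and 142 CPM. Both were below the control with each compound.

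Higher with RBI2 than with CX-5461 were SMAD7 (15.04 and 12.3 CPM with CX-5461), BHLHE40 (31.4 and 27.6 CPM) and SOCS3 (46.1 and 49.0 CPM). With CX-5461 SMAD7 (log2 fold change 0.58, adjusted p = 0.0227) and BHLHE40 (0.52, adjusted p = 0.0157) also passed as higher than the control. SOCS3 did not pass there (-0.037, adjusted p = 0.884). ID3, DUSP1 and AMOTL2 lay below the control with CX-5461 and above it with RBI2: ID3 read 35.2 and 31.6 CPM with CX-5461, DUSP1 23.3 and 25.4 CPM and AMOTL2 118 and 120.0 CPM. C15orf39 did so too, at 18.5 and 18.9 CPM with CX-5461. Its difference of CX-5461 from the control did not pass (log2 fold change -0.20, adjusted p = 0.242), while those of ID3, DUSP1 and AMOTL2 did. Between the compounds the differences of SMAD7, BHLHE40, SOCS3, ID3, DUSP1 and AMOTL2 passed, with log2 differences from 0.99 for BHLHE40 to 1.81 for ID3. That of C15orf39 was 1.04 and passed as well. IGHV3-15 was low with both compounds, at 4.58 and 3.67 CPM with CX-5461 and 1.94 and 2.10 CPM with RBI2.

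For several genes no difference between the compounds passed. SPRY1 read 7.17 and 7.39 CPM with CX-5461 and 6.38 and 6.73 CPM with RBI2, a log2 difference of -0.15 with a 95% interval of -0.46 to 0.15. That of GADD45B was 0.16 (-0.05 to 0.37), that of CSRNP1 0.27 (-0.11 to 0.64) and that of SOX9 0.06 (-0.29 to 0.42). HES1 read 46.1 and 42.7 CPM with CX-5461 and 52.9 and 55.0 CPM with RBI2, with a log2 difference of 0.28 (0.04 to 0.52, adjusted p = 0.257). These intervals come from the fitted SE without adjustment for the number of genes, and differences of any size within them are not excluded. With CX-5461 all of SPRY1, GADD45B, CSRNP1, SOX9 and HES1 also passed against the control, in the direction they had with RBI2. In that order their log2 fold changes were -0.89, 0.88, 1.31, -1.09 and 1.15, with adjusted p from 0.000316 (HES1) to 0.00399 (SPRY1). FAM43A (1.07), GATA2 (0.78) and BDNF (-1.08) did so too, and their differences between the compounds did not pass.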

How the data were processed

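The authors removed reads from the rDNA repeat and quantified the rest on transcripts of GRCh38, and the deposited files hold, for each of the 14 libraries, the estimated counts and the TPM values of Salmon. The submitters' processing notes list STAR 2.7.6a, SAMtools 1.11, bedtools 2.29.2, Salmon 1.3.0 and DESeq2 1.28.1. Estimated counts of 225662 of 228754 transcripts were summed over GENCODE 44 genes and rounded. The reads of unmatched transcripts, 1.03% to 1.13% of a library, were left out.

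All 14 libraries were fitted together with edgeR 4.0.16 in R 4.3.3 (quasi-likelihood test, TMM scaling, filterByExpr with a minimum count of 10, Benjamini-Hochberg adjustment over 15426 genes). Groups followed the labels, and each SE is the log2 fold change divided by the root of F. A call needed an adjusted p under 0.05 with a log2 fold change of 1 or more in size. Depth was 14112299 to 24849354 reads a library, and the common biological coefficient of variation was 12.3%. The fit was tested on simulated data only at changes larger than the 2-fold limit, and its recovery of changes at that limit was not tested.

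The genes named were all those called, 17 others past the adjusted p at any fold with at least 5 CPM, and PABPC1, ATXN2 and GAPDH. Up to 4 members of each list with the largest change were named as well. Other list members are given as examples and were chosen after their values were seen. AMOTL2 was taken as a list member and PMEPA1 after its values were seen, although both passed the adjusted p with at least 5 CPM. The members and the lists were chosen with earlier results of these data known. Upstream windows were those of RefSeq (GRCh38.p14). Alternatives were DESeq2 1.42.0, its size factors, no filter, an offset for transcript length, a replicate block, the 4 libraries alone, other thresholds, no mitochondrial genes and each library left out in turn.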

Additional observations from a re-analysis of the deposited data

Results flagged for a closer look

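Several genes differed between RBI2 labelled 10 min and another label by a direct test (edgeR's quasi-likelihood test, adjusted p over all genes) and by at least 2-fold. They had been picked by the libraries labelled 10 min, which stand in each of these tests. Against RBI2 labelled 30 min the log2 differences were 1.57 for SMAD7, 1.28 for ID2, 1.31 for BHLHE40, 1.3 for SKIL, -1.03 for SPRY1 and -2.93 for IGHV3-15, with adjusted p from 3.34e-05 (IGHV3-15) to 0.038 (SKIL). Against RBI2 labelled 120 min they were 1.32 for SMAD7, 1.35 for ID2, 1.3 for BHLHE40, 1.63 for SKIL, 1.06 for DUSP1, -1.04 for KLF6, -1.06 for SPRY1 and -2.64 for IGHV3-15, with adjusted p from 0.000113 (IGHV3-15) to 0.00532 (SKIL and SPRY1).

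Against CX-5461 labelled 10 min the log2 differences were 1.32 for SMAD7, 1.07 for SOCS3, 1.81 for ID3, 1.25 for DUSP1, 1.12 for AMOTL2, 1.04 for C15orf39, 1.35 for KLF6, -1.03 for IGHV3-15 and -2.81 for ID2, with adjusted p from 2.5e-07 (ID2) to 0.00883 (IGHV3-15). KLF6 and ID2 differ here against the direction they had from the control, since both lay further from the control with CX-5461. ID3, DUSP1, AMOTL2 and C15orf39 lay on opposite sides of the control libraries with the compounds. For C15orf39 the difference of CX-5461 from the control did not pass (log2 fold change -0.20, adjusted p = 0.242). In each gene listed in this section both libraries of RBI2 labelled 10 min lay on the same side of both libraries of the other label.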

How the results depend on the processing

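The count called against the control was 12, and was 299 at an unadjusted p, 31 with no fold limit, 355 with no filter on low counts, 6 with an offset for transcript length, 0 with only the 4 libraries (edgeR) and 37 with DESeq2. Leaving out 1 library gave 7 (either RBI2 library) to 724 (control replicate 1, where the lone control is assumed to vary like the other groups). Against RBI2 labelled 30 min 9 became 157, 29, 151, 48 (only the 4 libraries) and 15 (DESeq2), and 5 to 19 with 1 library left out. Against RBI2 labelled 120 min 107 became 404, 993, 394, 35 (length offset), 231 (only the 4 libraries) and 67 (DESeq2), and 7 (without RBI2 labelled 10 min replicate 1) to 215 (without control replicate 2). Against CX-5461 160 became 471, 472, 398, 104 (length offset) and 258 (only the 4 libraries), and 95 to 225. The first 3 values in each of these series are an unadjusted p, no fold limit and no filter. The causes of these shifts were not tested.

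All 31 genes kept the adjusted p under DESeq2, its size factors, no filter and no mitochondrial genes. With the length offset the log2 fold change of AKAP9 reversed to 0.34 and that of PABPC4 to -0.44. Without control replicate 2 and without control replicate 1, in that order, those of genes that did not pass with all libraries were -0.0083 and 1.21 for PHLDA3, -0.054 and 0.77 for EXOSC5, 0.067 and -0.73 for UTP20, -0.015 and 0.95 for RPS19, -0.0078 and 0.88 for RPL10, -0.087 and 1.03 for RPS21 and -0.076 and 0.15 for GAPDH. In the 21 pairs of groups the deviations of same-numbered libraries correlated at -0.179 to 0.18, which gives no sign that the numbers pair the samples. With 2 libraries in a group this cannot exclude a shared culture or batch. With the replicate number as a block 12 genes were called against the control and 26 of the 31 passed. Among the other values, mostly of single genes, 1414 kept their direction and side of the threshold, 250 lost the adjusted p, 76 gained it and 9 reversed.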
